A study of Mus musculus with 9 samples.

Results

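The genes described are 10 regulators of the passage from G1 into S phase: the D cyclins *Ccnd1*, *Ccnd2* and *Ccnd3*, their kinases *Cdk4* and *Cdk6*, the CDK inhibitors *Cdkn1a*, *Cdkn1b* and *Cdkn2c*, the transcription factor *Myc* and the retinoblastoma gene *Rb1*. They were chosen by name and role, with earlier results of these data known. They make up 10 of the 54432 genes in the deposited table and 10 of the 12637 genes with enough counts to be tested. RNAseq was performed on RAW 264.7 cells, a mouse macrophage line grown in medium with serum, in 3 groups of 3 libraries. CTRL cells were left untreated, VLDLsep cells received VLDL-sized triglyceride-rich emulsion particles and CHYLsep cells received larger emulsion particles of the size of chylomicrons. According to the methods both were given at 1 mM for 6 hours. A supplementary caption of the authors gives a lower dose for the chylomicron-sized particles, so equal doses are not certain. The comparisons ask how each particle changed gene expression and whether the particles differed. Each library is a pool of the samples of 1 condition from 1 experiment, and the libraries of a group were described as biological triplicates, although the labels do not say which cultures they came from. All libraries come from 1 cell line that divides continuously, which limits the comparison to macrophages in tissue.

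In a cell that starts to divide, growth signals raise the D cyclins, which bind CDK4 or CDK6. These kinases begin to phosphorylate the retinoblastoma protein, which otherwise holds back the E2F factors that switch on the genes of DNA replication. Inhibitors of the INK4 family, among them the product of *Cdkn2c*, bind CDK4 and CDK6 themselves, whereas the Cip/Kip inhibitors encoded by *Cdkn1a* and *Cdkn1b* act mainly on complexes of cyclin E or A with CDK2. MYC works as a dimer with MAX and drives growth, ribosome assembly and entry into the cycle, and p53 is a well known activator of *Cdkn1a*. Most macrophages in tissue are not dividing, while this line keeps cycling in culture.

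Depth was nearly equal in the 9 libraries, with totals of 22393893 to 22856792 estimated counts. Of 8 macrophage markers, all 8 had more than 10 counts, with a summed level of 6848 to 6949 cpm (TMM-normalized counts-per-million) in CTRL, 6143 to 6335 cpm in VLDLsep and 6317 to 6516 cpm in CHYLsep. The 3 T cell and 3 B cell markers never exceeded 10 counts, the 3 epithelial markers were at 0 in every library, and 1 of 4 fibroblast markers (*Pdgfra*) and 1 of 4 neutrophil markers (*S100a8*) passed 10 counts. In each group the replicate 3 library stood apart from the other two. For that reason the counts below are also given without these libraries and with a batch term for them, both chosen after the data had been seen, for the lists of related genes only where they differ.

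In CTRL cells *Ccnd1* and *Cdk4* were the most abundant of the 10 transcripts. Set per kilobase of the longest coding transcript, so that genes of different length can be compared, the mean level of *Ccnd1* was 134 ± 12.3 and that of *Cdk4* 133 ± 9.21 cpm per kb (SD, n = 3), and their libraries overlapped. On the same scale the mean levels were 50.9 ± 5.80 cpm per kb for *Ccnd3* and 45.8 ± 3.38 for *Cdkn1a*, which overlapped with each other and with no gene above or below them. *Cdkn2c* (13.4), *Cdkn1b* (13.0) and *Cdk6* (10.6 cpm per kb) came next, each overlapping with its neighbour. *Rb1* at 9.01 ± 0.298, *Myc* at 5.71 ± 1.88 and *Ccnd2* at 0.14 ± 0.087 cpm per kb closed the order without overlap, so that *Ccnd2* transcripts were close to absent from these cells. The order within overlapping pairs depends on the transcript length used, since with the median length of the coding transcripts *Cdk4* stood above *Ccnd1*, *Cdkn1a* above *Ccnd3* and *Cdkn1b* above *Cdkn2c*.

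**Figure D1:**
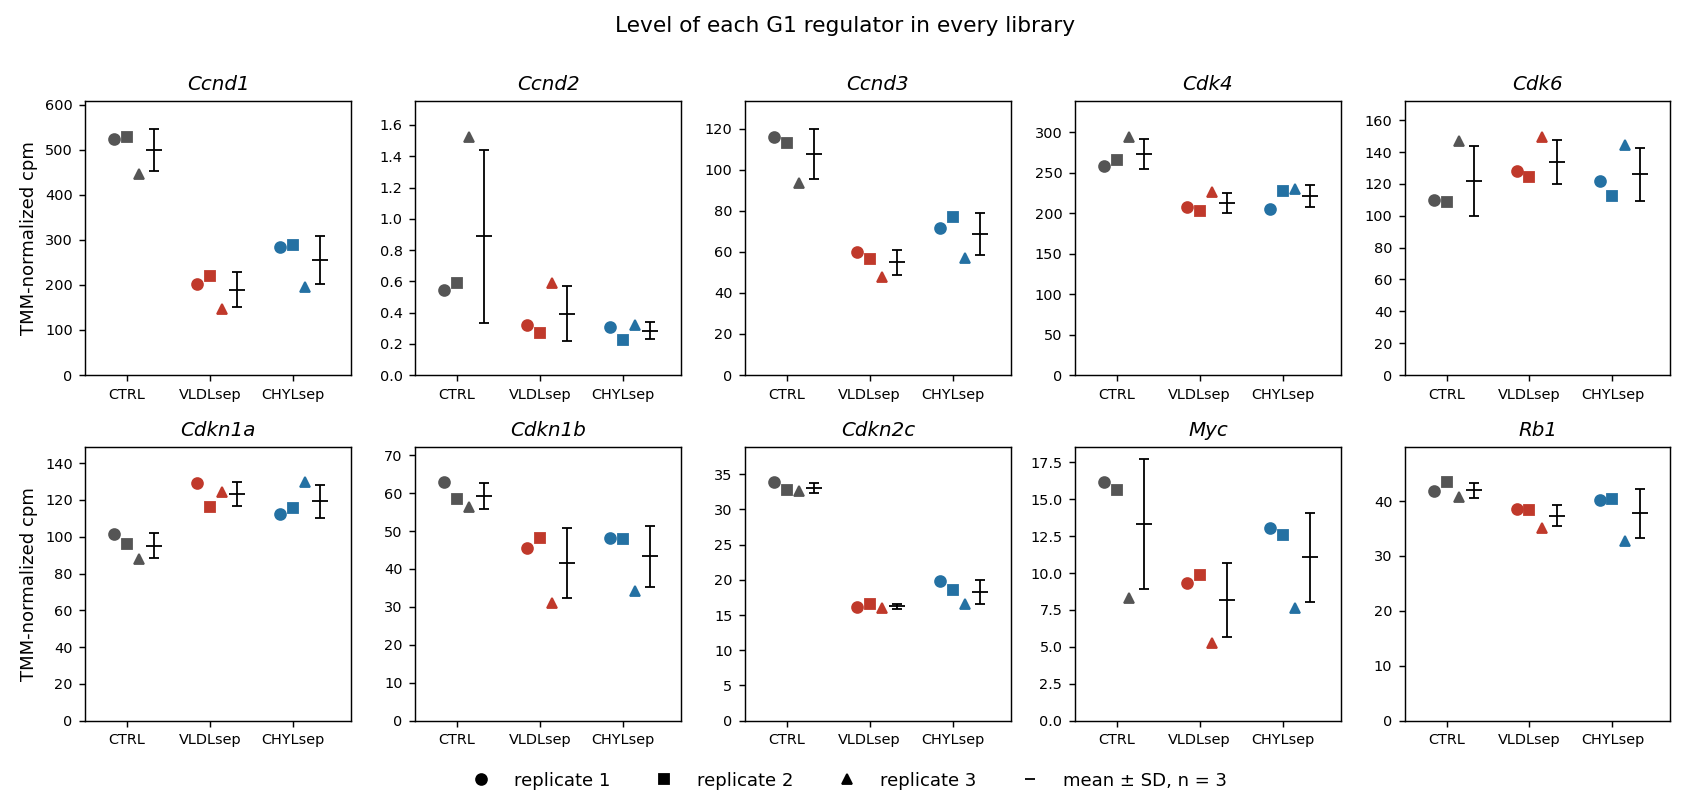
Level of each of the 10 genes in TMM-normalized cpm (linear axis from 0) in every library of the CTRL, VLDLsep and CHYLsep groups, with the mean ± SD of 3 libraries beside the points and a symbol for each replicate number. The 3 CTRL libraries of *Ccnd1* sit between 447 and 529 cpm, above all VLDLsep libraries (147 to 220) and all CHYLsep libraries (194 to 289), whereas *Cdk6* overlaps in all groups and replicate 3 of *Myc* is the lowest in each group.

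Among the D cyclins, *Ccnd1* and *Ccnd3* fell with both particles. Cyclin D1, the product of *Ccnd1*, is the classic sensor of growth signals in G1. *Ccnd1* (ENSMUSG00000070348, GRCm38 chromosome 7 from 144929931 to 144939925, minus strand) was measured at 524, 529 and 447 cpm in replicates 1, 2 and 3 of CTRL, at 201, 220 and 147 cpm in VLDLsep and at 285, 289 and 194 cpm in CHYLsep. Every treated library lay below every CTRL library, and replicate 3 was the lowest of each group. The log2 fold change was -1.42 for VLDLsep (standard error 0.17, adjusted p = 0.000114, limma-voom, Benjamini-Hochberg adjustment over all tested genes), a 2.67-fold lower level, and -0.98 for CHYLsep (standard error 0.17, adjusted p = 0.00183), a 1.98-fold lower level. In such bulk samples fewer cells that express a gene and less RNA per cell cannot be told apart. *Ccnd1* overlaps the annotated gene LTO1 on the other strand, which had at most 502 counts in a library against 3221 or more for *Ccnd1*. Whether reads were counted by strand is not given in the sources used here, so reads in the shared stretch cannot be told apart.

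*Ccnd3* (ENSMUSG00000034165, chromosome 17 from 47505051 to 47599691), a D cyclin with known roles in blood cell development, had 116, 113 and 93.6 cpm in CTRL, 59.9, 56.7 and 48.0 cpm in VLDLsep and 71.7, 76.9 and 57.1 cpm in CHYLsep. The treated libraries were again all below the CTRL libraries. The fall was 1.96-fold with VLDLsep (log2 fold change -0.97, standard error 0.12, adjusted p = 0.000167) and 1.57-fold with CHYLsep (-0.65, standard error 0.12, adjusted p = 0.00265). *Ccnd3* shares part of its locus with *Bysl*, a ribosome assembly gene on the other strand with up to 1836.5 counts.

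*Ccnd2* (ENSMUSG00000000184, chromosome 6 from 127125162 to 127152193) was barely detected, with between 13 and 35.6 counts in a CTRL library, 6 to 13 in VLDLsep and 5 to 7 in CHYLsep. Its level was 0.547, 0.590 and 1.52 cpm in CTRL, 0.319, 0.270 and 0.592 cpm in VLDLsep and 0.310, 0.225 and 0.319 cpm in CHYLsep, so that replicate 3 of CTRL was 2.68 times the mean of the other two. The log2 fold change was -1.04 (standard error 0.45, adjusted p = 0.0981) for VLDLsep, where the groups overlapped, and -1.41 (standard error 0.47, adjusted p = 0.0503) for CHYLsep, where they did not. Neither passed the threshold of 0.05, and without replicate 3 of CTRL the CHYLsep value was -0.95 with an adjusted p of 0.0978. DESeq2 gave an adjusted p of 0.0367 for CHYLsep, and *Ccnd2* passed there in 7 of 15 alternatives and in the added fit with a batch term for replicate 3 (adjusted p = 0.00318).

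Of the kinases, *Cdk4* fell with both particles, and *Cdk6* passed for VLDLsep only with a replicate block, with the batch term or without replicate 3. *Cdk4* (ENSMUSG00000006728, chromosome 10 from 127063534 to 127067920) had 259, 266 and 294 cpm in CTRL, 208, 203 and 226 cpm in VLDLsep and 206, 228 and 230.1 cpm in CHYLsep. The groups did not overlap with CTRL, although the change was small, 1.29-fold lower with VLDLsep (log2 fold change -0.36, standard error 0.067, adjusted p = 0.00186) and 1.23-fold lower with CHYLsep (-0.30, standard error 0.067, adjusted p = 0.00753). *Cdk4* overlaps *Tspan31* on the other strand, which had up to 2041 counts. *Cdk6* (ENSMUSG00000040274, chromosome 5 from 3341485 to 3531008), which encodes the closest relative of CDK4, had 110.03, 109 and 147 cpm in CTRL, 128, 124 and 149.6 cpm in VLDLsep and 122, 112 and 144 cpm in CHYLsep. All 3 groups overlapped and replicate 3 was the highest in each. The log2 fold change was 0.14 (standard error 0.13, adjusted p = 0.416) for VLDLsep and 0.05 (standard error 0.13, adjusted p = 0.801) for CHYLsep, with 95% confidence intervals from -0.14 to 0.43 and from -0.23 to 0.34. Within the replicate numbers VLDLsep was higher than CTRL by 0.22, 0.19 and 0.02 on the log2 scale, and with the replicate block described for *Myc* below *Cdk6* rose with VLDLsep (log2 fold change 0.14, standard error 0.046, adjusted p = 0.0227).

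The promoters of these kinase genes are shown because *Cdk4* is a well known target of MYC, whose dimer with MAX binds the letters CACGTG, a palindrome that reads alike on both strands. Promoter sequence was given by RefSeq (GRCm38.p6) for 6 of the 10 genes, with 9 promoters in all, and not for *Ccnd1*, *Ccnd2*, *Myc* and *Rb1*. Over the 250 bases before the start, CACGTG was found 4 times for *Cdk4*, with its first base 172, 118, 98 and 11 bases before the start, once for *Cdk6*, 220 bases before it, and in none of the other 7 promoters. Among 32851 promoters of this length 6.02% held it and 7 held it 4 or more times. A match describes letters in this window and not binding. The *Cdk4* window ends at the first base of the gene coordinates given above, 127063534. The *Cdk6* window lies inside its gene coordinates, which begin at 3341485, so the start used for *Cdk6* is an internal one. The motif is in capitals in the plus-strand sequences of chr10:127063285-127063534 (*Cdk4*) and chr5:3343643-3343892 (*Cdk6*).
*Cdk4*: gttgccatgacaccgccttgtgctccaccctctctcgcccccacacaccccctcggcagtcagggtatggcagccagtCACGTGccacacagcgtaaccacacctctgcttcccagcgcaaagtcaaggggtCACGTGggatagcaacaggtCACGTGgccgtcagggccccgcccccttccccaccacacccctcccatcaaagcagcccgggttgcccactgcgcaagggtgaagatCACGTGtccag
*Cdk6*: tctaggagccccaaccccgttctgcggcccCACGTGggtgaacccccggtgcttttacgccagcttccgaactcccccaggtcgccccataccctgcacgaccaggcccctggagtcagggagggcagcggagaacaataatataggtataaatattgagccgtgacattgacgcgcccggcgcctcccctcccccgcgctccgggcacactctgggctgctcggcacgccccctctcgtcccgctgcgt

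The CDK inhibitors did not move together: *Cdkn1a* rose, *Cdkn2c* fell, and *Cdkn1b* fell with VLDLsep. *Cdkn1a* (ENSMUSG00000023067, chromosome 17 from 29090976 to 29100727), which encodes p21, had 102, 96.2 and 87.7 cpm in CTRL, 129, 116 and 124 cpm in VLDLsep and 112, 116 and 129.6 cpm in CHYLsep. Every treated library was above every CTRL library. In the model without a block or batch term it was the only 1 of the 10 genes to rise, by 1.30-fold with VLDLsep (log2 fold change 0.37, standard error 0.073, adjusted p = 0.0024) and 1.25-fold with CHYLsep (0.32, standard error 0.073, adjusted p = 0.00798).

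*Cdkn2c* (ENSMUSG00000028551, chromosome 4 from 109660876 to 109667189), which encodes the INK4 inhibitor p18, had the least spread of the 10 genes in CTRL and VLDLsep. Its level was 33.9, 32.7 and 32.6 cpm in CTRL, 16.1, 16.6 and 16.0 cpm in VLDLsep and 19.8, 18.5 and 16.5 cpm in CHYLsep. The CTRL libraries varied by 2.05% of their mean and the VLDLsep libraries by 1.96%, while the groups were far apart. The fall was 2.04-fold with VLDLsep (log2 fold change -1.03, standard error 0.073, adjusted p = 3.59e-06) and 1.81-fold with CHYLsep (-0.86, standard error 0.071, adjusted p = 1.63e-05), the smallest adjusted p of the 10 genes in both comparisons. All *Cdkn2c* values were whole numbers in the 9 libraries and no annotated gene overlaps it.

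*Cdkn1b* (ENSMUSG00000003031, chromosome 6 from 134920401 to 134925513), which encodes p27, an inhibitor that is high in resting cells, had 62.9, 58.5 and 56.3 cpm in CTRL, 45.5, 48.3 and 31.1 cpm in VLDLsep and 48.1, 48.0 and 34.1 cpm in CHYLsep. Treated libraries were all lower than CTRL, and replicate 3 lay furthest down in both treated groups. The log2 fold change was -0.53 (standard error 0.16, adjusted p = 0.0256) for VLDLsep and -0.46 (standard error 0.16, adjusted p = 0.0568) for CHYLsep. The VLDLsep call was lost when some single libraries were left out. The adjusted p was 0.0799 without CTRL replicate 1 (log2 fold change -0.49) and 0.0561 without CTRL replicate 2 (-0.54). Without VLDLsep replicate 3 it was 0.0713, and the log2 fold change shrank to -0.34. *Cdkn1b* passed for VLDLsep in 13 of the 16 alternatives that were not added for replicate 3, and for CHYLsep in 4 of 16. With the libraries of replicates 1 and 2 only, *Cdkn1b* passed for both particles, at -0.37 (adjusted p = 0.00016) and -0.34 (adjusted p = 0.000515).

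*Myc* and *Rb1* did not pass in the limma-voom model of the 9 libraries with TMM and without a block or batch term. *Myc* (ENSMUSG00000022346, chromosome 15 from 61985391 to 61990374) had 16.1, 15.6 and 8.27 cpm in CTRL, 9.31, 9.88 and 5.28 cpm in VLDLsep and 13.0, 12.6 and 7.62 cpm in CHYLsep. Replicate 3 was the lowest of each group, at 0.521, 0.550 and 0.595 times the mean of replicates 1 and 2, so that CTRL replicate 3 lay below VLDLsep replicates 1 and 2. Within each replicate number VLDLsep was lower than CTRL, with log2 ratios of -0.79, -0.66 and -0.65. The log2 fold change was -0.70 (standard error 0.32, adjusted p = 0.118) for VLDLsep and -0.25 (standard error 0.30, adjusted p = 0.596) for CHYLsep. DESeq2 on the same 9 libraries called *Myc* for VLDLsep (-0.71, adjusted p = 0.0383) and not for CHYLsep (-0.27, adjusted p = 0.552). *Myc* passed for VLDLsep in 3 of the 16 alternatives that were not added for replicate 3, and for CHYLsep in 1 of 16. With the replicate number as a block, which the same-numbered VLDLsep and CTRL libraries allow because they deviate together, *Myc* fell by 0.71 on the log2 scale with VLDLsep (standard error 0.079, adjusted p = 1.58e-05). With the libraries of replicates 1 and 2 only, *Myc* fell by 0.73 with VLDLsep (adjusted p = 2.76e-05) and by 0.31 with CHYLsep (adjusted p = 0.0127). Without CTRL replicate 3 the VLDLsep value was -1.01 (adjusted p = 0.013), and without VLDLsep replicate 3 it was -0.42 (adjusted p = 0.346).

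*Rb1* (ENSMUSG00000022105, chromosome 14 from 73183673 to 73325822, minus strand), which encodes the retinoblastoma protein, had 41.8, 43.4 and 40.6 cpm in CTRL, 38.6, 38.3 and 35.2 cpm in VLDLsep and 40.1, 40.4 and 32.6 cpm in CHYLsep. The highest treated library was just below the lowest CTRL library. The log2 fold change was -0.17 (standard error 0.083, adjusted p = 0.144) for VLDLsep and -0.16 (standard error 0.083, adjusted p = 0.193) for CHYLsep. When only library size was used for normalization *Rb1* passed for VLDLsep (-0.26, adjusted p = 0.045) and not for CHYLsep (-0.24, adjusted p = 0.0773). *Lpar6* and *Rcbtb2*, on the other strand, overlap *Rb1*, with at most 583 and 1115 counts against 716 or more for *Rb1*.

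**Figure D2:**
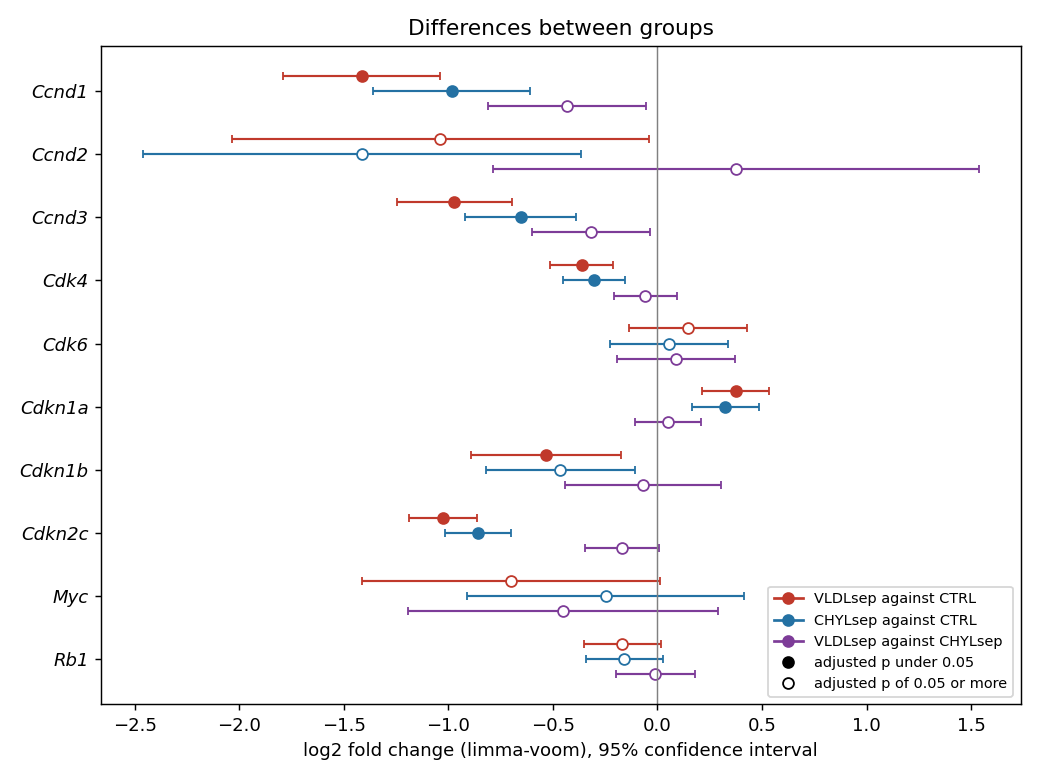
Log2 fold change (limma-voom, horizontal axis) of the 10 genes with its 95% confidence interval for VLDLsep against CTRL, CHYLsep against CTRL and VLDLsep against CHYLsep, with filled points for an adjusted p under 0.05. *Ccnd1*, *Ccnd3*, *Cdk4*, *Cdkn1a* and *Cdkn2c* are filled in both comparisons with CTRL, *Cdkn1b* with VLDLsep alone, and no point of VLDLsep against CHYLsep is filled.

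With VLDLsep 6 of the 10 genes passed the test, 1 higher and 5 lower, against a background of 35.6% of all genes tested (17.8% higher and 17.9% lower). With CHYLsep 5 of the 10 passed, 1 higher and 4 lower, against 25.7% (12.7% higher and 13% lower). The comparisons share the CTRL libraries, so they are not independent, and the 10 genes were chosen with earlier results of these data known. The median log2 fold change of the 10 genes was -0.62 with VLDLsep and -0.38 with CHYLsep, beside -0.00028 and 0.0013 over all genes tested. Of all genes that passed, 49.9% were higher with VLDLsep and 49.6% with CHYLsep, and 31.3% and 29.8% when only library size was used for normalization, a setting under which none of the genes called above changed direction. Libraries did not overlap with CTRL for 7 of the 10 genes in VLDLsep (background 47.4%) and for 8 in CHYLsep (background 41.7%).

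The counts grew when the separation of replicate 3 was taken into account. In the fit of all 9 libraries with the replicate block, all 10 genes passed for VLDLsep against CTRL, beside a background of 47.9%. *Ccnd2* (adjusted p = 0.0229), *Cdk6* (log2 fold change 0.14, adjusted p = 0.0227), *Myc* and *Rb1* (-0.17, adjusted p = 0.0275) were added. Without replicate 3, *Ccnd2* had too few counts to be tested, and 8 genes passed for VLDLsep (background 43.4%) and 7 for CHYLsep (background 33.8%). With the batch term it was 10 for VLDLsep (background 49.2%) and 9 for CHYLsep (background 40.7%), *Cdk6* being the exception. *Ccnd1*, *Ccnd3*, *Cdk4*, *Cdkn1a* and *Cdkn2c* passed in both comparisons under each of the 16 alternatives of the closing section that were not added for replicate 3, and in both fits that were.

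Between the particles, none of the 10 genes passed (0 of 12637 genes, 0%, with limma-voom, although 813 had an unadjusted p under 0.05). DESeq2 called 14 genes (0.111%), none of them among the 10. The libraries of the particles overlapped for all 10 genes, while 11.3% of all genes did not overlap. *Ccnd1* was lower in VLDLsep than in CHYLsep within each replicate number, with log2 ratios of -0.50, -0.39 and -0.41, and the fitted difference was -0.43 with a 95% confidence interval from -0.81 to -0.05 (adjusted p = 0.73). *Ccnd3* was likewise lower in 3 of 3 numbers, with a fitted difference of -0.32 and an interval from -0.60 to -0.035 (adjusted p = 0.736), and *Myc* in 3 of 3 numbers, with -0.45 and an interval from -1.19 to 0.29 (adjusted p = 0.89). *Cdkn2c* was also lower in 3 of 3 numbers (-0.30, -0.16 and -0.05), with a fitted difference of -0.17 (adjusted p = 0.793). *Ccnd2* and *Cdk6* were higher in VLDLsep in 3 of 3. Across all genes 17.5% were lower in VLDLsep in 3 of 3 numbers. The labels do not say what a replicate number marks, and between the particles replicates 1 and 2 did not pair by number. Their deviations from the group means correlated at 0.03 and 0.12 within a number. Across numbers the values were 0.18 (VLDLsep 1 with CHYLsep 2) and 0.17 (VLDLsep 2 with CHYLsep 1). The ratios within numbers are therefore descriptive only. The adjusted p-values of this comparison do not show that the particles acted alike on these genes.

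With the batch term for replicate 3, 3 of the 10 genes passed between the particles, *Ccnd1* (adjusted p = 0.00688), *Ccnd3* (0.0073) and *Myc* (0.0197), against a background of 1.89% of genes. With replicates 1 and 2 alone *Ccnd1* (-0.44, adjusted p = 0.000483) and *Ccnd3* (-0.35, adjusted p = 0.00631) passed and *Myc* (-0.41, adjusted p = 0.0502) did not, against a background of 2.07%. For the remaining 7 genes the intervals of the difference in the 9 libraries included 0 and none passed in either setting. They were narrowest for *Cdk4* (from -0.21 to 0.09), *Cdkn1a* (from -0.11 to 0.21) and *Cdkn2c* (from -0.35 to 0.0078).

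**Figure D3:**
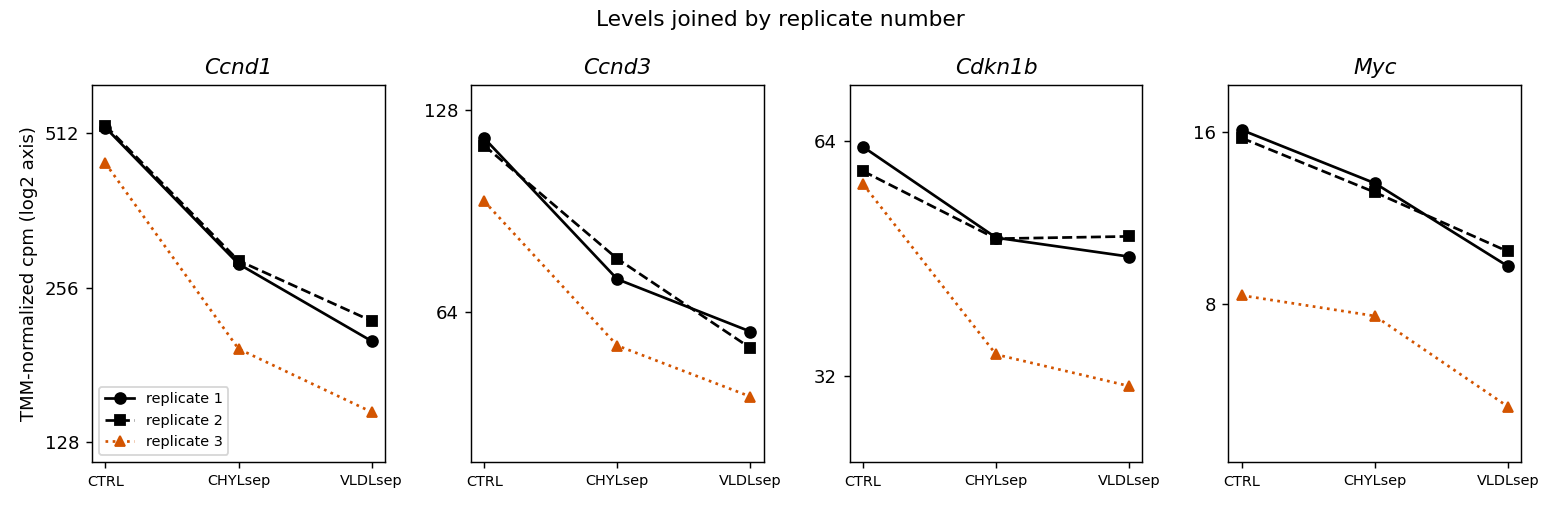
Levels of *Ccnd1*, *Ccnd3*, *Cdkn1b* and *Myc* in TMM-normalized cpm (log2 axis), with the CTRL, CHYLsep and VLDLsep libraries of the same replicate number joined by a line. For *Ccnd1*, *Ccnd3* and *Myc* each line falls from CTRL through CHYLsep to VLDLsep, and the replicate 3 line lies below the others, as for *Myc* at 8.27, 7.62 and 5.28 cpm. The labels do not say what a replicate number marks.

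The balance among the genes shifted along with the single levels. Summed per kilobase of the longest coding transcript, the D cyclins had a level of 185 ± 18.0 cpm per kb in CTRL, 76.7 ± 12.8 in VLDLsep and 101 ± 19.0 in CHYLsep (SD, n = 3). The treated libraries did not overlap with CTRL (164 to 195), and VLDLsep (62.0 to 85.8) overlapped with CHYLsep (79.1 to 114). *Ccnd1* made up 72.4% ± 0.529 of that sum in CTRL, 65.8% ± 2.75 in VLDLsep and 67.6% ± 1.71 in CHYLsep. The D cyclin sum was 3.14 ± 0.148 times the sum of *Cdkn1a* and *Cdkn1b* in CTRL, 1.12 ± 0.179 times in VLDLsep and 1.52 ± 0.334 times in CHYLsep, and with the median length of the coding transcripts 2.17, 0.801 and 1.08 times, so that its position above or below 1 after VLDLsep depends on the length used. The level of *Cdkn1a* was 3.51 ± 0.0976 times that of *Cdkn1b* in CTRL, 6.75 ± 1.79 times in VLDLsep and 6.23 ± 1.80 times in CHYLsep. In VLDLsep the mean level of *Cdkn1a*, 59.3 cpm per kb, was above that of *Ccnd1*, 50.7, although their libraries overlapped on this scale, and with the median length the means were 79.9 and 50.7. In CTRL *Ccnd1* stood above *Cdkn1a* with either length. *Cdk4* accounted for 92.7% of the kinase sum in CTRL, 89.9% in VLDLsep and 90.8% in CHYLsep. These ratios come from the same libraries as the levels above and carry no test.

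The genes that act next in the pathway were read from the same fit, from lists made with earlier results of these data known. Beside their counts stands the share of all tested genes called, 35.6% with VLDLsep (17.9% lower) and 25.7% with CHYLsep (13% lower). That share was 43.4% and 33.8% without replicate 3, and 49.2% and 40.7% with the batch term. When only library size was used for normalization it was 38.1% and 28.3%, and the median log2 fold change over all genes was -0.094 and -0.079. Of the cyclin E genes, *Cdk2* and its activating phosphatase *Cdc25a*, 4 of 4 fell with VLDLsep and 4 of 4 with CHYLsep, with median log2 fold changes of -0.76 and -0.58. *Ccne1* had -1.04 and -0.70, *Ccne2* -0.88 and -0.61, *Cdk2* -0.63 and -0.55 and *Cdc25a* -0.41 and -0.35. The CDK-activating kinase, which phosphorylates the CDKs, differed: its kinase *Cdk7* (0.51 and 0.42) and its assembly factor *Mnat1* (0.56 and 0.53) rose with both particles, and its cyclin *Ccnh* fell with VLDLsep (-0.18, adjusted p = 0.0328) and did not pass with CHYLsep (-0.08, adjusted p = 0.362). Of the other INK4 and Cip/Kip inhibitors, *Cdkn2d* fell (-0.79 and -0.59), *Cdkn1c* did not pass (-0.17 and -0.06), and *Cdkn2a* and *Cdkn2b* had 0 counts in every library, so that *Cdkn2c* and *Cdkn2d* were the INK4 genes detected.

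Downstream of RB, 8 of 12 genes for pocket proteins, E2F factors and their DP partners fell and 1 rose with each particle, with medians of -0.46 and -0.33. This was 75% called with each particle, beside 35.6% of all genes with VLDLsep and 25.7% with CHYLsep. Among those that fell were *E2f8* (-1.34 and -1.07) and *E2f7* (-0.82 and -0.55), repressors that are themselves E2F targets, and *E2f2* (-0.69 and -0.59) and *E2f1* (-0.56 and -0.46), and *E2f6*, a repressor that acts without RB, rose (0.52 and 0.46). Without replicate 3 the VLDLsep count was 8 lower and 2 higher (background 43.4%), *E2f3* being the second. Of 20 E2F target genes of S-phase entry, the cyclin E genes included, 19 fell and none rose with VLDLsep (95% called, background 35.6%, median -0.61). With CHYLsep 16 fell and none rose (80% called, background 25.7%, median -0.51). *Cdc6*, which loads the replicative helicase, had -1.36 and -0.99, *Uhrf1*, which maintains DNA methylation, -1.08 and -0.83, and *Rrm2*, a subunit of ribonucleotide reductase, -0.95 and -0.77. *Pcna*, the sliding clamp of replication, was the 1 gene of the list with a positive value, 0.18 (adjusted p = 0.113) and 0.18 (adjusted p = 0.122). Without replicate 3 and with the batch term the counts were 19 lower and 1 higher, *Pcna*, of 20 for both particles.

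Among 24 p53 target genes tested, with *Cdkn1a* among them, 12 rose and 2 fell with VLDLsep (58.3% called, background 35.6%, median 0.22). With CHYLsep 9 rose and 3 fell (50% called, background 25.7%, median 0.15). When only library size was used for normalization the VLDLsep split was 9 higher and 5 lower (background 38.1%, with 1507 genes higher and 3312 lower). Without replicate 3 the counts were 14 higher and 3 lower for VLDLsep (background 43.4%) and 10 and 3 for CHYLsep (background 33.8%). With the batch term they were 15 and 3 for VLDLsep (background 49.2%) and 12 and 3 for CHYLsep (background 40.7%). With VLDLsep the largest rises were those of the stress kinase gene *Plk2* (1.93 and 1.52), the growth arrest gene *Gadd45a* (1.80 and 1.42) and *Sesn2* (1.505 and 0.89), followed by *Plk3* (1.18 and 0.90), a relative of *Plk2*. The largest fall was that of *Sesn1* (-1.34 and -1.20), a relative of *Sesn2*. *Mdm2*, which encodes the ubiquitin ligase of p53, rose (1.09 and 0.82). *Phlda3* fell with both particles (-0.75 and -0.51). *Bbc3* fell with CHYLsep (-0.47, adjusted p = 0.0303) and had -0.32 (adjusted p = 0.0938) with VLDLsep. *Perp* was below the minimum of counts, and *Trp53*, which encodes p53 itself, fell (-0.39, adjusted p = 0.00421, and -0.27, adjusted p = 0.0368).

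For the partners and targets of MYC the shares of genes called were close to the background. Of 9 genes of the Max network tested, 2 rose and 1 fell with VLDLsep (33.3% called, beside 35.6% of all genes), and 1 rose and 1 fell with CHYLsep (22.2%, beside 25.7%). None of the 9 rose when only library size was used for normalization, a setting with medians over all genes of -0.094 and -0.079. *Mxd3*, a partner of MAX, fell (-1.22 and -0.90), *Mga* rose with VLDLsep (0.34, adjusted p = 0.0096) and had 0.21 (adjusted p = 0.093) with CHYLsep, *Mxi1* rose (0.21 and 0.21), and *Max* itself had 0.07 (adjusted p = 0.25) and 0.05 (adjusted p = 0.498). *Mycn* and *Mycl* were at or below 1 count. Of 26 MYC target genes of ribosome assembly, polyamine and nucleotide synthesis, with *Cdk4* among them, 5 rose and 4 fell with VLDLsep (34.6% called, median 0.07) and 3 rose and 4 fell with CHYLsep (26.9% called, median 0.06), medians that were negative (-0.025 and -0.024) when only library size was used for normalization. *Odc1*, the first enzyme of polyamine synthesis, had 0.71 (adjusted p = 0.0304) and 0.58 (adjusted p = 0.087), and *Ppat*, an enzyme of purine synthesis, fell (-0.43 and -0.34). With the replicate block for VLDLsep (background 47.9%) the counts were 4 higher and 1 lower of the 9 and 10 higher and 4 lower of the 26. Without replicate 3 the 26 gave 8 higher and 4 lower for VLDLsep (background 43.4%) and 7 and 4 for CHYLsep (background 33.8%). With the batch term (backgrounds 49.2% and 40.7%) they gave 10 and 4 and 8 and 5, and the 9 gave 3 and 1 and 3 and 2.

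Of 10 genes for ubiquitin ligase parts that act on G1 regulators, 4 rose and 2 fell with VLDLsep (background 35.6%) and 1 rose and 2 fell with CHYLsep (background 25.7%). For VLDLsep 2 rose and 2 fell when only library size was used for normalization (background 38.1%), and 5 and 2 both without replicate 3 and with the batch term. For CHYLsep 2 rose and 3 fell without replicate 3 (background 33.8%), and 4 and 3 with the batch term (background 40.7%). *Skp2* (-0.35 and -0.34) and *Cks1b* (-0.34 and -0.21), which together direct p27 to degradation, fell, *Skp1a* rose (0.30 and 0.26), and *Fbxw7*, whose product targets cyclin E and MYC, rose with VLDLsep (0.40, adjusted p = 0.00437) and had 0.19 (adjusted p = 0.138) with CHYLsep. Of 6 FOXO and KLF factors of resting cells, *Klf2* (-2.36 and -1.65) and *Klf4* (-0.58 and -0.62) fell, and *Foxo1*, *Foxo3* and *Foxo4*, known activators of *Cdkn1b*, did not pass, with values between -0.12 and 0.10. Of these 6 factors 33.3% were called with each particle, beside 35.6% of all genes with VLDLsep and 25.7% with CHYLsep. Without replicate 3 and with the batch term 1 of the 6, *Klf6*, rose and 2 fell for each particle. The backgrounds for VLDLsep and CHYLsep were 43.4% and 33.8% without replicate 3 and 49.2% and 40.7% with the batch term. Of the 8 macrophage markers, 5 fell and 1 rose with VLDLsep (75% called, beside 35.6% of all genes, median -0.16). With CHYLsep 2 of 8 fell (25% called, beside 25.7% of all genes, median -0.12). Their part in the results above was not tested.

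**Figure D4:**
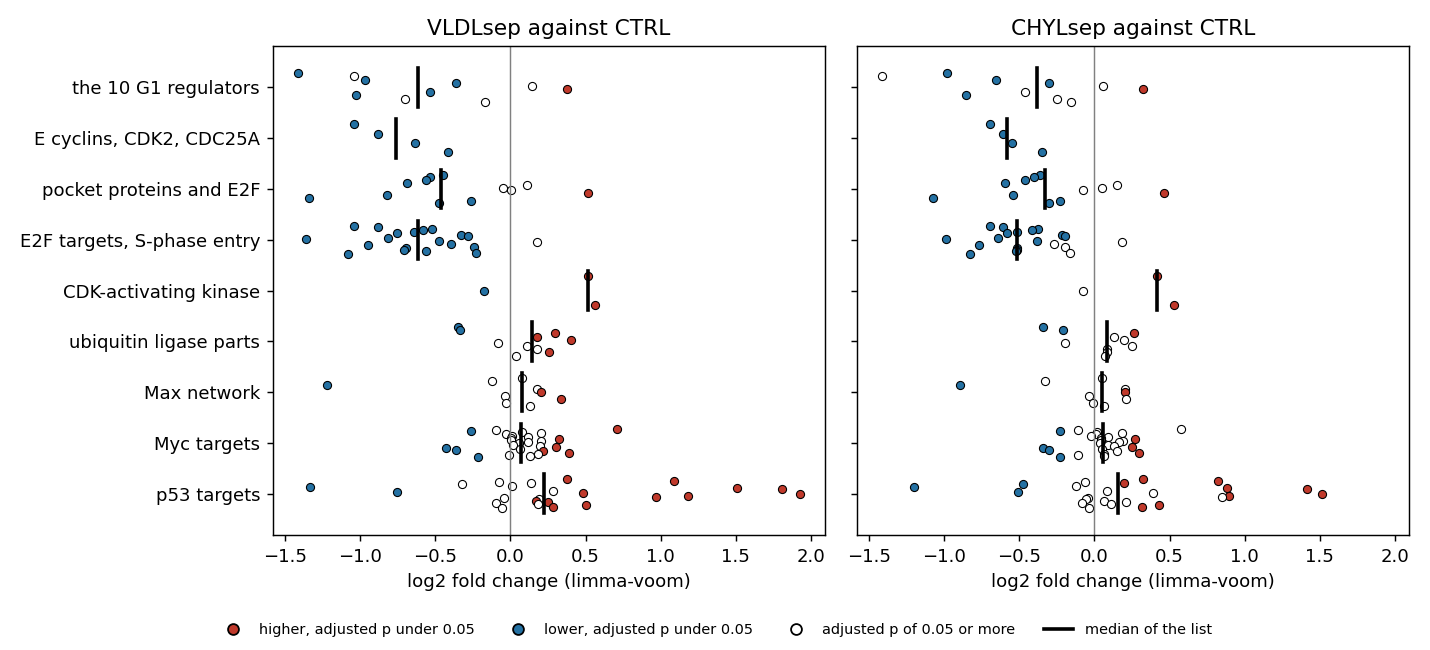
Log2 fold change (limma-voom) of each tested gene of the 10 G1 regulators and of 8 lists of related genes, for VLDLsep and CHYLsep against CTRL, with colour for genes called higher or lower at an adjusted p under 0.05 and a bar at the median of each list. The E2F target genes lie below 0 except for *Pcna* (0.18), and the p53 target genes reach 1.93 for *Plk2* with VLDLsep.

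The genes most like *Ccnd1* and *Ccnd2*, the 2 genes with the largest absolute fitted log2 fold change with VLDLsep, were sought among 8668 genes with a mean of at least 10 cpm, by Pearson's r of log2 cpm over the 9 libraries. For *Ccnd1* they were *Nfam1* (r = 0.998), *Frmd4b* (0.997) and *Maf* (0.997), whose log2 fold changes with VLDLsep were -1.02, -1.28 and -2.91. For *Ccnd2*, which had few counts and passed in neither comparison with CTRL, they were *Rrp1b* (0.958), *Tgfbr1* (0.951) and *Mrps34* (0.951). The 9 points share their 3 groups and the separation of replicate 3, so the values describe these libraries only.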

How the data were processed

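RNAseq of 9 libraries of RAW 264.7 cells was used, grouped by the sample labels. The authors quantified reads with Salmon 0.14.1 against GENCODE transcripts of GRCm38.p6 and deposited an estimated count per gene. According to the methods the counts were scaled for transcript length and library size, but the deposited values looked unscaled, since 58.3% of those above 10 were whole numbers (tolerance 1e-09). Symbols were matched for 54346 of 54432 genes. Coordinates and transcript lengths came from an annotation of GRCm38 one release before theirs. Depth was 22393893 to 22856792 counts per library.

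The test was limma 3.58.1 in R 4.3.3 with voom weights, in 1 model of the 9 libraries. It was applied to the 12637 genes that exceeded 10 counts in 3 libraries or more, normalized by TMM (edgeR 4.0.16). P-values were adjusted by Benjamini-Hochberg and genes were called at an adjusted p under 0.05. Estimated counts were rounded for edgeR and DESeq2 1.42.0. Only the limma-voom fit without a block or batch term was tried on simulated counts with known changes. These counts held no separation of replicate 3, and the other fits were not tried in this way. The 10 genes and all lists were chosen with earlier results of these data known. Named were the 10 genes, up to 4 called genes per list by size of change, list genes under the filter, and the 3 genes most like each of the 2 with the largest absolute log2 fold change with VLDLsep. *Bbc3*, *Ccnh*, *Cdkn1c*, *E2f3*, *E2f6*, *Foxo1*, *Foxo3*, *Foxo4*, *Klf6*, *Max*, *Mdm2*, *Pcna*, *Phlda3* and *Plk3* were named after their values were seen.

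Same-numbered VLDLsep and CTRL libraries deviated together from their group means (correlations across genes of 0.14, 0.13 and 0.29), so the replicate number was also used as a block. That fit held all 9 libraries, so the CHYLsep libraries also entered its block terms and its spread. The margin was small for VLDLsep replicate 2, which had a correlation of 0.12 with CTRL replicate 1. The labels give the numbers but not what they mark. The p-values measure the spread between these libraries.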

Additional observations from a re-analysis of the deposited data

How the results depend on the processing

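Alternatives were edgeR's quasi-likelihood test, DESeq2, limma-trend, other normalizations and filters, only the groups compared, the replicate block and each library left out in turn, and, added after the data had been seen, a batch term for replicate 3 and a fit without replicate 3. With the replicate block, 10 of the 10 genes passed for VLDLsep, and the batch term gave 10 as well. For CHYLsep the block gave 9 of the 10 and 4949 of all genes (39.2%), and the batch term 9 and 5147. Between the particles the block gave 3 of the 10 and 147 of all genes (1.16%), replicates 1 and 2 alone 2 and 257, the batch term 3 and 239, and DESeq2 14 of all genes. For CHYLsep with CTRL (correlations 0.12, 0.068 and 0.34) and between the particles (0.03, 0.12 and 0.36) the libraries shared only a number, and not every library correlated best with its own number, so these counts stand only here. Leaving out 1 library gave 5 to 7 of the 10 genes and 3482 to 4301 of all genes for VLDLsep, 5 to 6 and 2320 to 3101 for CHYLsep, and 0 and 0 to 1 between the particles. *Cdk6* in CHYLsep turned to -0.026 with library size only, to -0.014 without CTRL replicate 1, to -0.022 without CTRL replicate 2 and to -0.047 without CHYLsep replicate 3, with 0.20 at the other end, without CTRL replicate 3. Between the particles *Cdkn1b* turned to 0.13 without VLDLsep replicate 3, 0.016 without CHYLsep replicate 1 and 0.012 without CHYLsep replicate 2, and *Rb1* to 0.033, 0.040 and 0.043 without the same libraries, while without CHYLsep replicate 3 they had -0.23 and -0.11. None of these passed the test in any of these fits, and the cause was not tested. *Ccnd2* gave no value with a filter of over 50 counts, without replicate 3, or between the particles with only those groups.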
